A study of Homo sapiens with 3 samples.

Results

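Peaks of 2 histone H3 modifications were examined at 7 genes of the RAS to ERK signalling pathway in H2087, an established cell line of human lung adenocarcinoma. The genes were NRAS and HRAS (RAS), BRAF (RAF), MAP2K1 and MAP2K2 (MEK), MAPK3 (ERK) and NF1, and they were chosen by name from the 20163 protein-coding genes of the GENCODE annotation on hg19. The choice was made with earlier results of these data known. Other members of these families were not analysed here. Untreated cells were profiled by chromatin immunoprecipitation followed by sequencing (ChIP-seq), with 1 library for H3 trimethylated at lysine 4 (H3K4me3, antibody ab8580) and 1 for H3 acetylated at lysine 27 (H3K27ac, antibody ab4729). The third sample, an input library, was not analysed here. With 1 library per mark, no value has a replicate, no difference was tested, and intervals cover counting error only. Over each gene or within 50 kb of it lay 34 of the 18585 H3K4me3 peaks and 46 of the 24096 H3K27ac peaks, a peak being a distinct interval of the list with its highest −log10 q. This value was assigned by the peak caller of the authors, and it ranks peaks within 1 list. Read counts are not part of the lists, so a site without a peak cannot be told apart from a site with too few reads.

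RAS proteins are small GTPases that switch on when growth factor receptors load them with GTP, and active RAS recruits RAF kinases to the membrane. RAF phosphorylates MEK, MEK phosphorylates ERK, and ERK carries the signal to the nucleus and the cytoplasm. NF1 encodes neurofibromin, which speeds up GTP hydrolysis by RAS and so switches the pathway off. The pathway is frequently activated by mutation in lung adenocarcinoma, and catalogues of cell lines list mutations in NRAS and BRAF for H2087. The peak lists give no information on alleles. H3K4me3 is typical of active promoters, and H3K27ac of active promoters and enhancers.

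To show what lay at the starts, reference sequence (hg19) free of annotated exons is printed for 3 members. Of these, BRAF had no peak at its start, NF1 shared a motif with BRAF, and MAP2K1 lay next to a start on the other strand. Each sequence runs 5′ to 3′ on the strand of the named gene and ends next to its start. Capitals mark matches to the words searched on both strands, which were GGGCGG (GC box), CCGGAAG (ETS core), CCAAT, TGACGTCA (CRE), TGANTCA (AP-1) and AAGATGG (YY1 core).
BRAF, upstream of the start, chr7:140624730-140624979, minus strand: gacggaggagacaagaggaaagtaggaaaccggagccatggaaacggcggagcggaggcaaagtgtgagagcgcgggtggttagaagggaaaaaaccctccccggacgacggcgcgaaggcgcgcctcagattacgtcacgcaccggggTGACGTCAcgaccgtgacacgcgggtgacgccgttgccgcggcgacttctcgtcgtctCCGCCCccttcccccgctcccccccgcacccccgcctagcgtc
NF1, upstream of the start, chr17:29421695-29421944, plus strand: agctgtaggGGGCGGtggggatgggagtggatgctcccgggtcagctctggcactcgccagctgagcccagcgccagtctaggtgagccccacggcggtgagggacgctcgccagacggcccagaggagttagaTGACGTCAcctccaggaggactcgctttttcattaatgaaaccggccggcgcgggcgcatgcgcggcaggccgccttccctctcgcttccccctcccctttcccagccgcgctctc
MAP2K1, between its outer start and that of TIPIN, chr15:66679085-66679174, plus strand: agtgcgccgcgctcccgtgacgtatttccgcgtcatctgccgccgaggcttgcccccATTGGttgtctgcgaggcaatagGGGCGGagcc

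In the window from 250 bases before to 50 after the outer gene start, TGACGTCA was found at BRAF and NF1, and in 2.29% of the windows of all protein-coding genes. The GC box was found at 6 of 7 members, MAPK3 being the exception, and in 52.1% of all windows. CCGGAAG was present at NRAS and HRAS (11.8% of all windows) and CCAAT at BRAF, MAP2K1 and MAPK3 (35.8%). No member window held TGANTCA (6.36%) or AAGATGG (5.62%). The BRAF window was as rich in CpG as those of the marked members, with 40 CpG dinucleotides. The other windows held 39 at MAP2K2, 32 at HRAS and MAP2K1, 27 at NF1, 25 at NRAS and 7 at MAPK3. The canonical starts of NF1, MAP2K1, MAPK3 and HRAS lay 50, 75, 286 and 1745 bp downstream of the outer starts. They were outside these windows, and no window was placed on them. The MAPK3 H3K4me3 peak, 345 bp downstream of the outer start, held 33 CpG in 352 bp (71.6% GC, against 47.3% in the window). The median was 26 CpG (interquartile range 18 to 34) in windows with an H3K4me3 peak within 1 kb of the start and 10 (3 to 23) in those without. A match describes these letters only and is not evidence of binding.

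Both marks were present at the start of every member except BRAF. An H3K4me3 peak lay within 1 kb of the start of 6 of 7 members, compared with 38.2% of all protein-coding genes. H3K27ac was found at the same distance from 6 of 7 members, compared with 23.6%. Both marks were found at 6 members (18.6% of all genes), and neither at 1, BRAF (56.8%). Because the members were chosen with earlier results of these data known, these contrasts are not read as enrichment. In the strongest pair of peaks at each marked start, the marks overlapped at 5 of 6 genes and were separated by 139 bp at NRAS. The centre lay downstream of the start for 5 of 6 genes in each list, with HRAS as the exception. When only peaks with −log10 q of at least 5 were kept, H3K4me3 remained at the start of 3 members (MAP2K1, MAP2K2 and MAPK3) and H3K27ac at that of 3 (HRAS, MAP2K2 and MAPK3).

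**Figure D1:**
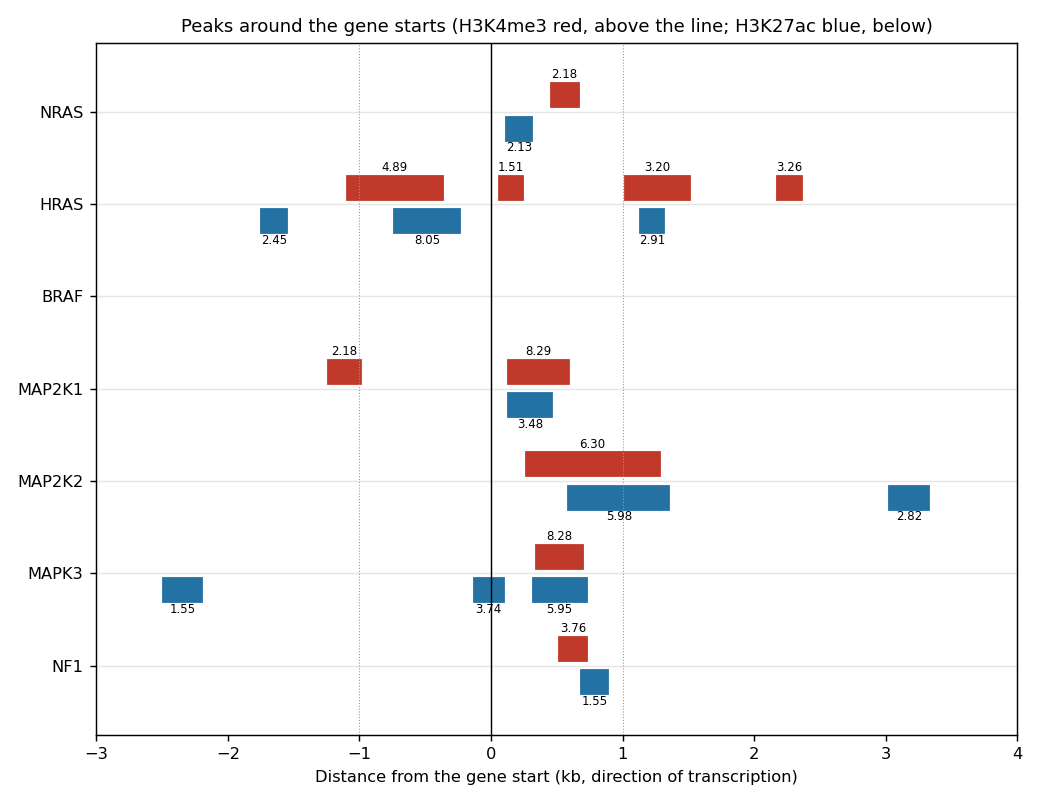
Peaks around the start of each gene, with the distance from the start in kb along the direction of transcription (dotted lines at 1 kb). Red bars above the line are H3K4me3 peaks and blue bars below it H3K27ac peaks, each labelled with its −log10 q. The row of BRAF is empty, and the bars of NRAS do not overlap.

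The strength of the start peaks differed between the members. For H3K4me3, the highest −log10 q within 1 kb of the start was 8.29 at MAP2K1, 8.28 at MAPK3, 6.30 at MAP2K2, 4.89 at HRAS, 3.76 at NF1 and 2.18 at NRAS. The median over the 7705 marked protein-coding starts was 3.76 (interquartile range 2.78 to 5.36), so the MEK and ERK genes were above the upper quartile and NRAS was below the lower quartile. For H3K27ac, the order was HRAS (8.05), MAP2K2 (5.98), MAPK3 (5.95), MAP2K1 (3.48), NRAS (2.13) and NF1 (1.55), against a median of 3.05 (2.16 to 4.28) over 4753 marked starts. HRAS, MAP2K2 and MAPK3 exceeded the upper quartile, whereas NRAS and NF1 were below the lower quartile. Both HRAS values came from peaks outside the gene whose nearest protein-coding start was that of LRRC56. Over HRAS itself and within 1 kb of its outer start, H3K4me3 reached 1.51 and H3K27ac had no peak. Without replicates, neighbours in these orders, such as MAP2K1 and MAPK3 for H3K4me3, cannot be ranked.

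**Figure D2:**
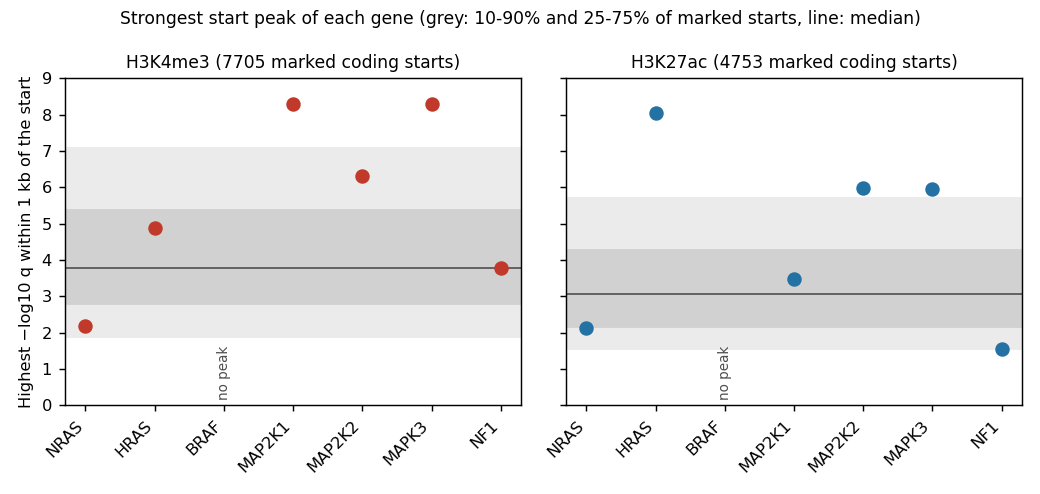
Highest −log10 q within 1 kb of the start of each gene, with H3K4me3 in the left panel and H3K27ac in the right panel (1 library each). Shading spans the middle 80% and 50% of all marked protein-coding starts and the line is their median. MAP2K1 and MAPK3 are highest for H3K4me3 (8.29 and 8.28), HRAS is highest for H3K27ac (8.05), and BRAF has no peak. Both HRAS points are peaks outside the gene and nearest to the start of LRRC56.

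NRAS (ENSG00000213281, chromosome 1, 115247090 to 115259392, minus strand) encodes a RAS GTPase and had 1 weak peak of each mark over the gene. The H3K27ac peak (115259079 to 115259280, 202 bp, −log10 q 2.13) lay in the untranslated part of exon 1, and its near edge was 112 bp downstream of the start. The H3K4me3 peak (115258725 to 115258939, 215 bp, 2.18) covered part of exon 2, where the coding sequence begins, 453 bp from the start. Both were in the lower part of their lists, above 30.4% and 24.2% of the peaks, respectively. Elsewhere in the window, H3K4me3 reached −log10 q 7.22 over the start of DENND2C, 46.3 kb downstream. Upstream of the NRAS start, the nearest peak of either mark was 38.7 kb away.

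HRAS (ENSG00000174775, chromosome 11, 532242 to 537321, minus strand), another RAS GTPase, lay in the most densely marked window, with 26 of the 80 peaks. The window held 14 H3K4me3 and 12 H3K27ac peaks, or 13.3 and 11.4 per 100 kb. The densities were 0.60 and 0.778 over all chromosomes and 1.01 and 1.44 over chromosome 11. A window placed on a gene contains starts by construction, and the windows of all members together, HRAS included, had 2.50 and 3.39. Fewer peaks were found at 98.8% of all protein-coding genes for H3K4me3 and at 94.1% for H3K27ac. Only 4 of the 26 peaks had the HRAS start as their nearest protein-coding start, and the others were nearest to 5 other genes, RNH1, LRRC56, RASSF7, LMNTD2 and PHRF1. The window lay in a gene-rich stretch with 45 other starts within 500 kb. Of these, 28 had H3K4me3 (62.2%, 95% interval 46.5 to 76.2) and 22 had H3K27ac (48.9%, 33.7 to 64.2). Over all protein-coding genes, the shares were 38.2% and 23.6%. Neighbouring starts can share a peak, as RASSF7 and LMNTD2 did for H3K4me3. The intervals treat starts as independent and are therefore too narrow for a comparison with the shares over all genes.

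The strongest H3K27ac peak near any member start lay upstream of HRAS and inside LRRC56, whose outer starts were 206 bp apart on opposite strands. It spanned 537555 to 538061 (507 bp, −log10 q 8.05), began 234 bp upstream of the outer HRAS start and 28 bp inside LRRC56, and had a higher value than 99.0% of the list. An H3K4me3 peak (537689 to 538413, 725 bp, 4.89) overlapped it by 373 bp. Within HRAS, a narrow H3K4me3 peak (537078 to 537264, 1.51) was 57 bp downstream of the outer start. The canonical transcript starts 1745 bp further downstream, and a pair of overlapping peaks lay just upstream of that start, H3K4me3 at 535811 to 536305 (495 bp, 3.20) and H3K27ac at 536003 to 536189 (187 bp, 2.91). A further H3K4me3 peak (534957 to 535144, 3.26) was in intron 1. Thus HRAS carried marks near both starts, and the stronger ones were on the side of LRRC56.

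BRAF (ENSG00000157764, chromosome 7, 140419127 to 140624729, minus strand) encodes a RAF kinase and was the only member with neither mark at its start. The nearest H3K27ac peak was 162 kb downstream of the start and the nearest H3K4me3 peak 228 kb downstream, beyond the end of the gene. Upstream, no peak of either mark was found for 626 kb. The start lay in a peak-free stretch of 788 kb, and 653 of 36723 spaces between neighbouring peaks were longer. Each space was counted once, although a long space holds more of the genome than a short one. This count is therefore not the share of starts in such spaces, which was not computed. This stretch contained no unknown bases in the reference. None of the 32-base words within 1 kb of the BRAF start occurred elsewhere in the assembly. Over chromosome 7 as a whole, 38.4% of the protein-coding starts had H3K4me3 and 24.8% H3K27ac, close to the shares over all genes. Of the 6 other starts within 500 kb, 1 had H3K4me3 (MKRN1, −log10 q 2.92, 445 kb away) and 0 had H3K27ac, with exact 95% intervals of 0.421 to 64.1% and 0 to 45.9%, which include the shares over all genes. MRPS33, TMEM178B, NDUFB2, DENND2A and ADCK2 had neither mark within 1 kb of their outer starts. Local copy number and coverage were not measured, and their part in this result was not tested.

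The window of BRAF held 4 peaks, all with low values. Over the gene there was 1, an H3K27ac peak in intron 13 (224 bp, −log10 q 1.55, higher than 8.32% of the list) that overlapped no exon of any transcript. Of its 32-base words, 83.4% occurred more than once in the assembly, and each of its 224 bases was part of such a word. The median word occurred 42 times and the most frequent one 2812 times. The other 3 peaks, H3K27ac at 140396517 to 140396701 (1.95) and 140396915 to 140397396 (1.89) and H3K4me3 at 140396587 to 140396870 (1.41), lay beyond the 3′ end of BRAF, 227 to 228 kb from its start. Each overlapped an annotated transcript start of NDUFB2, a subunit gene of respiratory complex I, 5.94 to 6.34 kb from its outer start, and none of their words was repeated.

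The MEK genes both carried strong H3K4me3. MAP2K1 (ENSG00000169032, chromosome 15, 66679175 to 66783994, plus strand) had the highest H3K4me3 value of all members, 8.29 in a peak at 66679307 to 66679767 (461 bp) over the untranslated and coding parts of exon 1. This was above 97.1% of the list. An H3K27ac peak (66679307 to 66679636, 330 bp, −log10 q 3.48) had the same 5′ edge and lay wholly within it. The outer start of TIPIN, on the other strand, was 91 bp away, so these peaks were within 1 kb of both starts. A second H3K4me3 peak (66677937 to 66678185, 2.18) was 990 bp upstream of MAP2K1, and 71.6% of its words were repeated in the assembly.

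Further from the start, the MAP2K1 window held marks at neighbouring genes and H3K27ac in an intron. H3K27ac at 66648456 to 66648900 (445 bp, −log10 q 5.12) and H3K4me3 at 66648443 to 66648789 (347 bp, 3.87) overlapped by 334 bp, 30275 and 30386 bp upstream of the start and 123 and 234 bp from another transcript start of TIPIN. In intron 5 of MAP2K1, H3K27ac peaks without H3K4me3 were found at 66752917 to 66753334 (418 bp, 1.89) and at 66773819 to 66774037 (219 bp, 1.83), 7125 and 3183 bp from the nearest transcript start. Both were weaker than the list median of 2.65. The nearest H3K4me3 peaks to them were 44.9 and 24.2 kb away. Downstream of the gene, H3K4me3 peaks with −log10 q of 2.23 and 3.98 lay 968 and 1468 bp from the start of ZWILCH. In the second of these, 57.9% of the words were repeated.

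MAP2K2 (ENSG00000126934, chromosome 19, 4090319 to 4124119, minus strand) had the widest start peaks. The H3K4me3 peak (4122837 to 4123856, 1020 bp, 2 summits, −log10 q 6.30) extended from the coding part of exon 1 into intron 1 and was wider than 97.9% of the list. The H3K27ac peak (4122763 to 4123531, 769 bp, 5.98) lay in intron 1 and shared 695 bp with it. In contrast to MAP2K1, no other protein-coding start was close, the nearest being that of CREB3L3 at 29.5 kb. MAP2K2 also had H3K27ac without H3K4me3 inside and upstream of the gene, at 4120790 to 4121096 in intron 1 (2.82), at 4115449 to 4115826 in intron 2 (3.05) and at 4131432 to 4131629, 7.31 kb upstream (2.82). In the last of these, 43.1% of the words were repeated. A weaker H3K27ac peak without H3K4me3 (4145557 to 4145789, 1.55) lay 21.4 kb upstream and was above 8.32% of the list. The widest peak of all members was an H3K4me3 peak of 1306 bp (4063827 to 4065132, 5.11), 598 bp from a transcript start of ZBTB7A, which encodes a transcriptional repressor.

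MAPK3 (ENSG00000102882, chromosome 16, 30125426 to 30134827, minus strand) encodes ERK1 and was the only member whose outer start lay under a peak. This H3K27ac peak (30134729 to 30134959, 231 bp, −log10 q 3.74) covered the start, and a stronger one followed at 30134100 to 30134511 (412 bp, 5.95). The H3K4me3 peak at 30134131 to 30134482 (352 bp, 8.28) was wholly inside the latter, over the coding part of exon 1. Of all pairs of start peaks, the centres were closest here, at 520.5 and 521.5 bp from the start. Another H3K27ac peak (30137025 to 30137322, 1.55) lay 2.20 kb upstream, with 27.3% of its words repeated.

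Of the 17 peaks in the MAPK3 window, 4 were nearest to the MAPK3 start and the others to ALDOA, PPP4C, TBX6, YPEL3 and CORO1A. At ALDOA, which encodes a glycolytic aldolase, 4 H3K27ac peaks had −log10 q of 1.81 to 4.27 within the window. Both marks overlapped at the start of PPP4C (H3K4me3 4.85, H3K27ac 3.07) and of TBX6 (4.13 and 2.48). YPEL3 had H3K27ac alone (3.71), 245 bp from its start. Of 49 other starts within 500 kb, 25 had H3K4me3 (51.0%, 95% interval 36.3 to 65.6) and 19 had H3K27ac (38.8%, 25.2 to 53.8), compared with 38.2% and 23.6% of all protein-coding genes. The interval for H3K4me3 includes the share over all genes. Both intervals treat starts as independent although neighbours can share a peak, so nothing is read from the one for H3K27ac.

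NF1 (ENSG00000196712, chromosome 17, 29421945 to 29709134, plus strand), the largest member at 287 kb, had the fewest H3K4me3 peaks together with BRAF. Its single H3K4me3 peak (29422463 to 29422675, 213 bp, −log10 q 3.76) was in intron 1, 518 bp downstream of the start. An H3K27ac peak (29422627 to 29422838, 212 bp, 1.55) overlapped it by 49 bp and was among the weakest of its list, above 8.32% of the peaks. The only other peak over the gene was H3K27ac in intron 36 (29597336 to 29597570, 1.4), 3070 bp from a transcript start of OMG, a gene inside NF1. Of its words, 40.2% were repeated.

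Upstream of NF1, 4 H3K27ac peaks without H3K4me3 lay 27.3 to 43.9 kb before the start. Their positions and values were 29394489 to 29394672 (−log10 q 1.55), 29393666 to 29393864 (2.11), 29389581 to 29389855 (2.16) and 29377812 to 29378039 (2.68). The value was thus highest in the peak farthest from NF1, and this was the only one above the list median. The NF1 start was the nearest protein-coding start to each of them, and the next, that of RNF135, was 124 kb upstream of NF1. In the same order, 16.3%, 2.38%, 32.8% and 10.7% of their words were repeated.

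**Figure D3:**
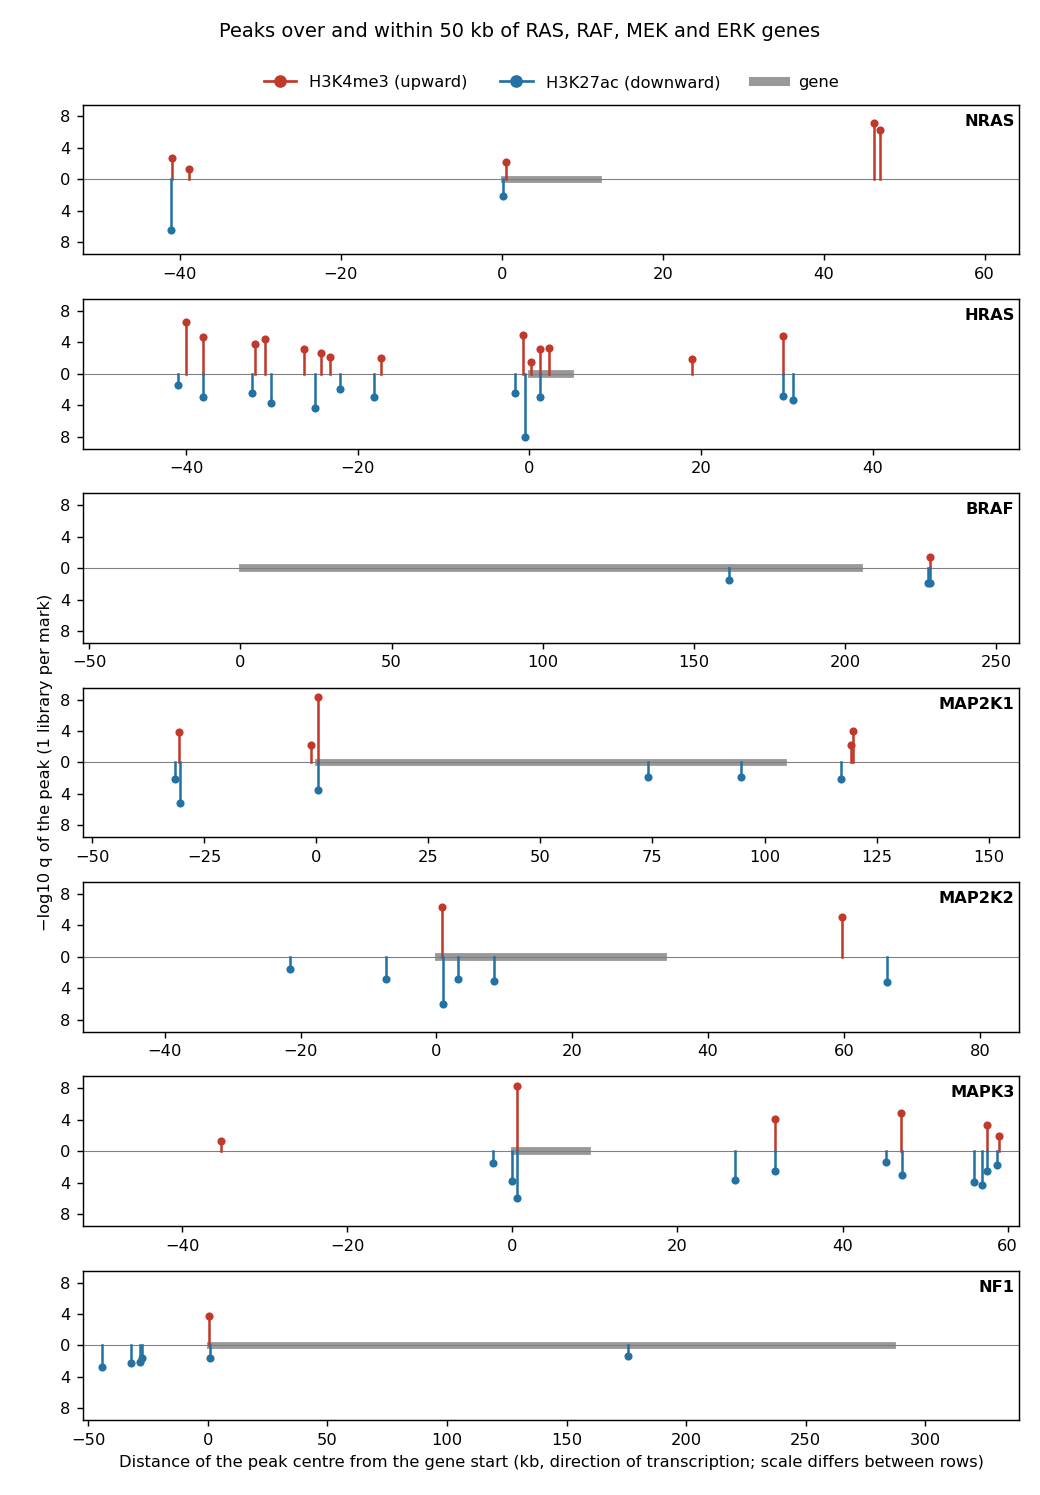
Peaks in the window of each gene, drawn as stems at the distance of the peak centre from the gene start in kb along the direction of transcription. Stem length is −log10 q, upward in red for H3K4me3 and downward in blue for H3K27ac, and the grey bar is the gene. HRAS and MAPK3 have crowded windows (26 and 17 peaks), while the BRAF window has 4 peaks, none of them near the start. The peak-free stretch around the BRAF start extends upstream beyond the part drawn.

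The peaks of the 7 windows were compared with the whole lists. In total, 8 of 34 H3K4me3 and 13 of 46 H3K27ac peaks lay over the genes. Every window held at least 1 peak of each mark, compared with 70.2% of all protein-coding genes for H3K4me3 and 63.9% for H3K27ac. The median −log10 q was 3.54 for H3K4me3, against 2.97 in the list, and 2.58 for H3K27ac, against 2.65. The median widths were 351 and 253 bp, against 305 and 284 bp. Of the H3K27ac peaks, 34.8% (16 of 46, 95% interval 21.4 to 50.2) overlapped H3K4me3, compared with 24% of the list. Over 1 kb from any protein-coding start lay 63.0% of the H3K27ac peaks (29 of 46, 47.5 to 76.8) and 41.2% of the H3K4me3 peaks (14 of 34, 24.6 to 59.3), against 79.5% and 54.2% of the lists. Since a window is placed on a gene, it contains starts by construction, and these shares are not read as particular to these genes. H3K27ac away from starts that shared no base with H3K4me3 was found in 24 peaks. Of these, 5 each were in the windows of HRAS, MAP2K2 and NF1 and 4 in that of MAPK3. The MAP2K1 window held 3, that of BRAF 2 and that of NRAS 0. Measured from the starts of all transcripts, 19 remained. Such peaks could still lie close to H3K4me3, at 183 to 539 bp for all 5 of the 24 in the HRAS window. In the windows of BRAF, MAPK3 and MAP2K1, 1 peak each lay 45, 245 and 743 bp from H3K4me3. For the 5 of NF1, the distance was 27.8 to 175 kb.

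**Figure D4:**
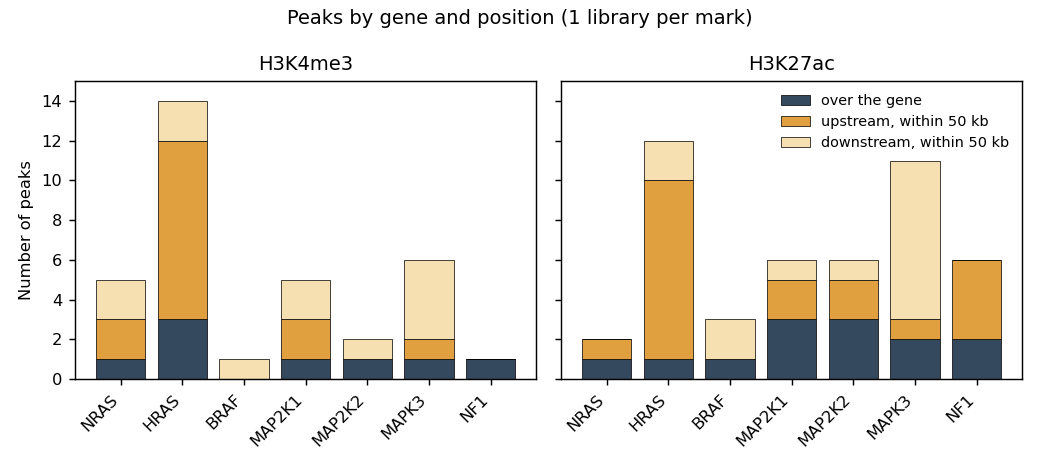
Number of peaks by gene for H3K4me3 (left) and H3K27ac (right), divided by position. Bars start at 0, and dark, orange and pale parts are peaks over the gene, upstream and downstream within 50 kb. HRAS has the most of each mark (14 and 12), most of them upstream, and BRAF and NF1 have 1 H3K4me3 peak each.

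Regulators and partners of the pathway were counted by the same rule. Of 35 genes, 18 (51.4%) had H3K4me3 within 1 kb of the start, 17 (48.6%) had H3K27ac, 14 had both and 14 had neither. Over all protein-coding genes, the shares were 38.2% for H3K4me3, 23.6% for H3K27ac, 18.6% for both and 56.8% for neither. The 35 genes were listed with earlier results of these data known, so this contrast is not read as enrichment. The smaller lists held 7 to 10 genes each, and nothing is read as particular to them. Among exchange factors and adaptors, which load RAS with GTP or link it to receptors, 4 of 10 had each mark, with the highest value at SHC1 (H3K4me3 11.0). SOS1 (4.89 for H3K4me3 and 2.82 for H3K27ac) and PTPN11 (3.45 and 3.90) had both, and GRB2 had H3K27ac alone (6.88). The exchange factors RASGRP1, RASGRP3, RASGRF1 and RASGRF2 had neither. Of the GTPase-activating proteins and partners of NF1, 7 of 10 had H3K4me3 and 6 had H3K27ac, with values of 9.93 and 4.45 at RASA1 and of 6.74 and 6.60 at SPRED1, which brings neurofibromin to the membrane. Among scaffolds and modulators, the counts were 5 and 3 of 7, with both marks at KSR1, KSR2 and PEBP1. Of 8 related small GTPases, 2 had H3K4me3 (RIT1 and RALA) and 4 had H3K27ac, while RRAS, RRAS2, MRAS and RAP1A had neither.

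The label of the cells was checked at marker genes. Of 12 genes of lung adenocarcinoma and lung epithelium, 7 had H3K4me3 and 7 had H3K27ac at the start, including NKX2-1 (1.58 and 2.82), KRT7 (9.85 and 6.90) and CDH1 (7.20 and 3.69). NAPSA, SFTPA1, SFTPB and SFTPC, which mark alveolar differentiation, had neither. None of the 14 squamous, neuroendocrine, blood and endothelial markers found in the annotation had either mark. Over all protein-coding genes, 38.2% had H3K4me3, 23.6% had H3K27ac and 56.8% had neither, so the absence of both at a single marker is common. The marker lists, too, were chosen with earlier results of these data known.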

How the data were processed

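ChIP-seq data of H2087 cells comprised 1 H3K4me3 and 1 H3K27ac library. Per the methods and the submitters' processing notes, the authors aligned reads to hg19 with Bowtie (1.1.1) and called peaks with MACS2 (2.1.0). The notes also name SAMtools (1.2) and Picard (1.118) without a role. The q threshold and the use of the input in peak calling are not given in the sources used here. The deposited lists hold a −log10 q-value per summit without a header. The unit was inferred from the numbers, whose minimum was 1.30 (H3K27ac) and 1.31 (H3K4me3). The lists give no read counts, so the depth is unknown, and −log10 q grows with depth and copy number.

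Distinct intervals were kept with their highest value. Genes and outer 5′ ends came from GENCODE 44 lifted to hg19, and no peak passed a chromosome end of the GRCh37 assembly. Peaks were taken over each gene and within 50 kb. Shares of peaks and of neighbouring starts have exact Clopper-Pearson 95% intervals, which treat peaks and starts as independent. Neighbouring starts can share a peak, so their intervals are too narrow. No test was made because each mark had 1 library. A 32-base word was repeated when it occurred more than once on either strand of the assembly. Motifs were counted at GENCODE starts on hg19, since the RefSeq promoter table (GRCh38.p14, 7 of 7 members matched) placed the starts of MAP2K1 and MAP2K2 15.0 and 20.9 kb further downstream. Named items were all members, with the nearest, strongest and widest peaks, and the genes nearest to them. Other list genes and neighbours were named after their values were seen. Members and lists were chosen with earlier results of these data known. Interval functions were tested on simulated data. Python 3.11.15, NumPy 2.4.6 and SciPy 1.17.1 were used.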

Additional observations from a re-analysis of the deposited data

How the results depend on the processing

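Of 73 alternatives to 10 results, 51 left the count within 1.5 times its value or the share within its interval, and 22 did not. That limit is wide for small counts. Within 500 bp of the start, 5 members had H3K4me3, 4 had H3K27ac and 4 had both. The counts were the same for peaks at or above the median of their list. No setting could have placed a mark at a BRAF start, so the settings do not probe that result. The nearest H3K27ac and H3K4me3 peaks were 18340 and 44647 bp from any BRAF transcript start, and the largest start distance used was 3 kb. Keeping only peaks with −log10 q of at least 5 gave H3K4me3 at 3 member starts, H3K27ac at 3 and both at 2, with 7 H3K4me3 and 5 H3K27ac peaks in the windows. Under the same limit, 14.3% of the H3K4me3 and 20% of the H3K27ac peaks lay away from protein-coding starts, and 5 and 3 of the regulators and partners had the marks. Peaks at or above the median of their list numbered 21 and 23. A flank of 10 kb left 10 H3K4me3 peaks, 20% of them away from starts, and 17 H3K27ac peaks, and the gene bodies alone held 8 and 13. The share of H3K27ac peaks with H3K4me3 rose to 60.9% when the other mark was allowed within 1 kb. H3K27ac peaks away from starts made up 80.4% at 500 bp, 45.7% at 3 kb and 43.5% with the starts of all transcripts, and H3K4me3 peaks 20.6% at 3 kb and 23.5% with all transcripts. The last setting counts more starts by its construction, and the other causes were not tested. No paired analysis was possible because a single library was made per mark. The unknown depth limits every statement on a missing peak.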
